A study of Mus musculus with 7 samples.

Results

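In POLII replicate 1, 3704 of the 53528 peaks (6.92%, with a 95% Wilson interval of 6.71 to 7.14) shared at least 1 bp with a SOX2 replicate 1 peak and none with the other 4 lists. They are called paired peaks here. The other 4 lists hold the peaks of POLII replicate 2, SOX2 replicate 2 and both C-MYC replicates, and the 6 lists together hold 238420 peaks. The paired peaks were chosen by which lists have a peak at a place, so the number of overlaps is a description and not a finding. The replicates are written POLII 1, POLII 2 and so on below.

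All samples come from iMOP cells, an immortalized multipotent otic progenitor line of the mouse that was made by bringing *c-Myc* into SOX2-expressing cochlear cells with a retrovirus. They grew as otospheres in DMEM/F12 with B27 and bFGF at 20 ng/ml, and the labels name no small molecule for any of them. ChIP-seq was done with antibodies against RNA POLII (clone 4H8), C-MYC (N-262) and SOX2 (clone 6F1.2), with 2 biological replicates each. An input DNA sample was sequenced as well, and its data were not analysed here.

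RNA POLII transcribes protein-coding genes and gathers at active promoters, where it often pauses before elongation. SOX2 is an HMG-box transcription factor that binds short DNA motifs in promoters and enhancers and marks the neurosensory progenitors of the inner ear. Both proteins are commonly found at transcribed promoters and at active enhancers. In ChIP-seq, a peak is an interval in which sequence tags exceed the background, and its summit is the base with the most tags.

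Both libraries on which the paired peaks rest have features that bear on what follows. POLII 1 had the most peaks of all lists but the fewest tags in them, 1705241, against 1784465 to 4488517 in the rest, and SOX2 1 held 2758044. In POLII 1, 76.0% of the peaks (75.6 to 76.3) overlapped no peak of any other list. Total reads per library were not analysed here, and tags in peaks do not give the depth of a library. Intervals below cover counting error over peaks alone. Both libraries are the first replicate of their antibody, and whether they share a culture or a preparation is not stated. The pattern stands on 1 library of each antibody, peaks of a library are not replicates, and differences between sets of peaks are given without a test. Peaks are given by their mm9 position, without gene names, because no annotation of that build was used.

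POLII 1 overlapped SOX2 1 at 9536 peaks, and 38.8% of these (37.9 to 39.8) were paired peaks, with no other list present. With each of the other lists as the only partner, POLII 1 had 439 peaks (C-MYC 1) to 660 peaks (C-MYC 2), and with the other POLII replicate 488. Seen from SOX2 1, 3674 of 39878 peaks overlapped POLII 1 alone, 1391 overlapped POLII 2 alone and 441 overlapped SOX2 2 alone. Of the 3704 SOX2 1 peaks under the paired peaks, 3660 overlapped no list but POLII 1, and 44 also touched another list outside the POLII 1 peak. Only 2 paired peaks held 2 SOX2 1 peaks, and 2 SOX2 1 peaks were split between 2 paired peaks. By the same rule, POLII 2 had SOX2 2 as the only partner at 659 of 31796 peaks (2.07%, 1.92 to 2.24). These held a median of 29 POLII 2 tags and 41 SOX2 2 tags, with summits 52 bp apart (47 to 59). POLII 2 had SOX2 1 as the only partner at 1373 peaks, with medians of 63 POLII 2 tags and 33 SOX2 1 tags. Between the C-MYC replicates, 7469 peaks of C-MYC 1 had C-MYC 2 as the only partner.

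**Figure D1:**
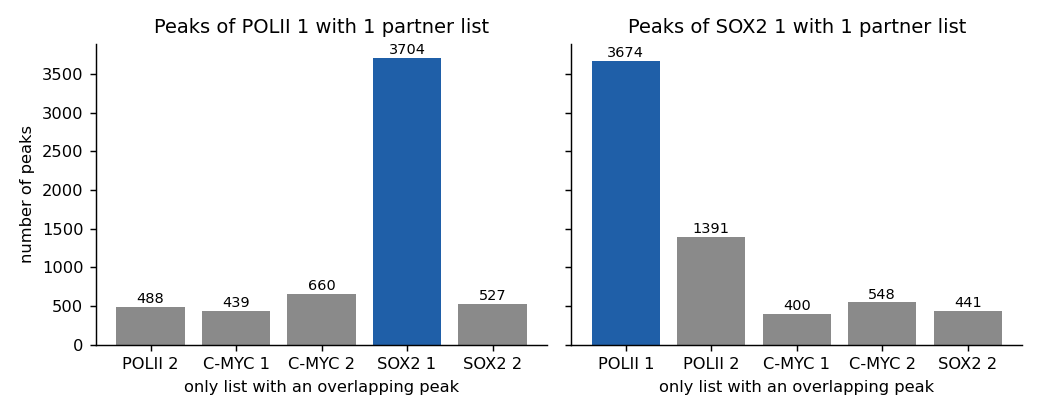
Number of peaks of POLII 1 (left) and SOX2 1 (right) that overlap a peak of 1 other list and no more, by that list. The blue bars are the pairing that defines the paired peaks, 3704 seen from POLII 1 and 3674 seen from SOX2 1, and the grey bars run from 400 to 1391 peaks.

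Peaks at the edge of the rule were not compared with the rest as a set. The smallest overlap was 7 bp at chr2:14541774-14542123, with 15 POLII 1 and 13 SOX2 1 tags, followed by 8 bp at chr10:52039123-52039606 and 9 bp at chr14:39142851-39143537. Just outside the rule, POLII 1 peaks at chr4:22023303-22023799 and chr4:62530062-62531336 missed a SOX2 1 peak by 1 bp, with 14 and 59 tags. Few peaks lay near this edge, with 5 paired peaks sharing at most 50 bp and 64 POLII 1 peaks seen nowhere else lying within 100 bp of a SOX2 1 peak.

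In the median, paired peaks had more POLII 1 tags than the list as a whole. Their SOX2 1 peaks had fewer tags than the SOX2 1 list as a whole. Paired peaks are described in POLII 1 first. The paired peaks held a median of 28 POLII 1 tags (quartiles 19 and 45, range 12 to 1191). POLII 1 peaks seen nowhere else held 21 (16 and 32). POLII 1 peaks shared with SOX2 1 and at least 1 more list held 32 (22 and 50), and those shared with other lists but not SOX2 1 held 27 (18 and 46). A paired peak held more POLII 1 tags than a peak seen nowhere else in 63.3% of all such pairs of peaks, ties shared equally, more than one shared with further lists in 44.3% and more than one shared with lists other than SOX2 1 in 51.2%. More tags than the median of the list, 23, were found in 2323 paired peaks (62.7%, 61.1 to 64.3), where 47.9% of all POLII 1 peaks had them. The median fold enrichment over background was 7.90 in paired peaks, 7.65 in those seen nowhere else and 7.41 in those shared with further lists.

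The SOX2 1 peaks at the same places held a median of 16 tags (quartiles 13 and 23, range 10 to 641). SOX2 1 peaks seen nowhere else held 15 tags (12 and 22). Those shared with POLII 1 and another list held 61 (26 and 153), and a paired peak exceeded one of these in 14.0% of pairs. Only 296 of the SOX2 1 peaks (7.99%, 7.16 to 8.91) had more tags than the list median of 35, where 49.6% of all SOX2 1 peaks did. The median SOX2 1 fold enrichment was 8.93 at paired peaks and 8.96 in all SOX2 1 peaks. It was 8.77 in those seen nowhere else and 9.68 in those shared with POLII 1 and another list. Paired peaks made up 9.29% of the SOX2 1 peaks and 2.86% of the tags in them, but 6.92% of the POLII 1 peaks and 8.24% of the tags. How far the required absence from 4 lists bears on these tag numbers was not tested. With the same number of peaks taken from every list, those with the highest scores, 1446 paired peaks were left, and with a score of at least 100 in both lists 110 were left.

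The score is 10 times the −log10 of the p-value of a peak. Paired peaks were a larger share of the high-scoring peaks in POLII 1 but of the low-scoring peaks in SOX2 1. Each list was cut into 5 classes of equal size by score. In the lowest class of POLII 1, 3.78% of the peaks were paired (3.44 to 4.16), and in the highest, from 85.61 up, 13.9% were (13.3 to 14.6). For SOX2 1 the lowest class held 17.0% paired peaks (16.2 to 17.8) and the highest 0.213% (0.133 to 0.341), which is 17 peaks. The median POLII 1 score was 77.2 in paired peaks and 62.5 in those seen nowhere else. POLII 1 peaks shared with SOX2 1 and another list had 75.3, and a paired peak exceeded one of these in 51.6% of pairs. How far the required absence from 4 lists bears on the scores was not tested.

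Within the paired peaks POLII 1 had more tags than SOX2 1 at 3203 of 3704 places (86.5%, 85.3 to 87.5), where 57.1% of all POLII 1 peaks that overlap SOX2 1 did. Tags are raw counts, not scaled between libraries, so the ratio itself has no absolute meaning, but it can be compared between sets from the same 2 libraries. The median ratio of POLII 1 to SOX2 1 tags was 1.69 (1.65 to 1.71) in paired peaks. It was 1.47 where 1 of the other 4 lists was present, 1.36 with 2, 0.543 with 3 and 0.204 (0.194 to 0.214) with all 4. POLII 1 tags had medians of 28, 33, 37, 34 and 29 from none to 4 further lists, while SOX2 1 tags had medians of 16, 23, 28, 75 and 150. The ratio thus differed between these sets mainly through SOX2 1. Per kilobase of peak, the ratio was 1.36 in paired peaks and 0.336 with all 4 lists.

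**Figure D2:**
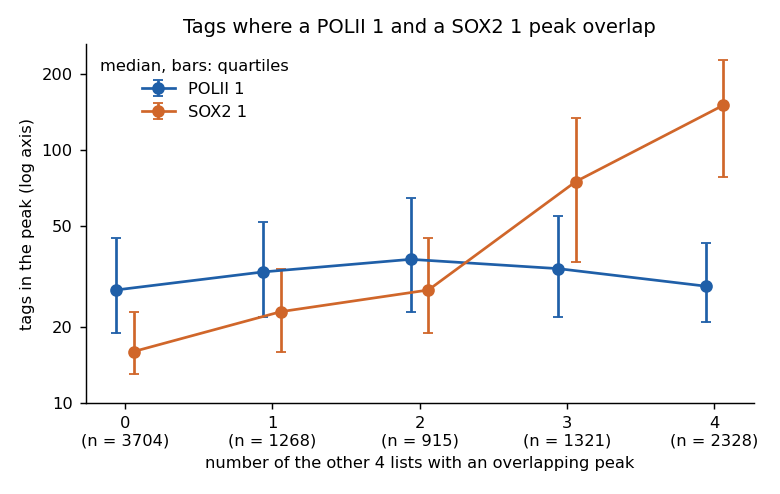
Median tags per peak (points, with bars from the first to the third quartile, log axis) in POLII 1 and SOX2 1 where peaks of both overlap, by how many of the other 4 lists also have a peak there. The paired peaks are at 0, with medians of 28 and 16 tags, and SOX2 1 reaches 150 tags with 4 further lists while POLII 1 is at 29.

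Across the 3704 paired peaks, the tags of both lists varied together with Spearman's rho of 0.541 (Pearson's r 0.427). Peak length enters both counts, since rho between tags and length was 0.855 in POLII 1 and 0.869 in SOX2 1. For tags per kilobase rho was 0.344. Fold enrichments had a rho of 0.536. In the 5832 POLII 1 peaks shared with SOX2 1 and further lists, rho of the tags was 0.038. By number of further lists it was 0.383 with 1, 0.409 with 2, -0.013 with 3 and 0.050 with all 4. With 1 further list, it ran from 0.324 (POLII 2) to 0.595 (SOX2 2), the latter above the paired peaks. With another list as the only partner, POLII 1 had values from 0.127 (POLII 2) to 0.376 (SOX2 2), and SOX2 1 from 0.584 (SOX2 2) to 0.741 (POLII 2), all above the paired peaks. The pairing of C-MYC 1 with C-MYC 2 had 0.926. These correlations run over peaks of the same libraries and are descriptions.

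In the median, paired peaks were longer than the POLII 1 list and shorter than the SOX2 1 list. Their median length was 643 bp in POLII 1 (quartiles 499 and 864) and 519 bp in SOX2 1 (431 and 657). All POLII 1 peaks had a median of 568 bp and those seen nowhere else 541 bp, which paired peaks exceeded in 60.8% of pairs of peaks. POLII 1 peaks shared with SOX2 1 and another list had 729 bp, and paired peaks exceeded these in 41.8% of pairs. Those shared with other lists but not SOX2 1 had 627.5 bp, exceeded in 50.1% of pairs. All SOX2 1 peaks had a median of 735 bp, those seen nowhere else 475 bp and those shared with POLII 1 and further lists 962 bp. The POLII 1 peak was the longer at 75.4% of the places (74.0 to 76.7). In 1843 cases (49.8%) the SOX2 1 peak lay wholly inside the POLII 1 peak, and in 406 (11.0%) it was the other way round. These shares were not computed over all POLII 1 peaks that overlap SOX2 1. There the median lengths were 692 bp in POLII 1 and 706.5 bp in SOX2 1, and whether the shares set paired peaks apart was not tested. The median overlap of the paired peaks was 481 bp.

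The summits lay a median of 54 bp apart (95% interval 50 to 56, quartiles 22 and 126). They were within 100 bp of each other at 2533 places (68.4%, 66.9 to 69.9), where 55.2% of all POLII 1 peaks that overlap SOX2 1 had them so close. Within 50 bp were 48.4%, within 500 bp 95.7%, and only 33 pairs of summits were more than 1000 bp apart. The direction was balanced, with the POLII 1 summit at the higher coordinate in 1907 cases, at the lower in 1774 and on the same base in 23, and a median signed distance of 2 bp. Where further lists were present, the median distance was 115 bp (109 to 121), and it was 58 bp with 1 further list, 71 bp with 2, 199 bp with 3 and 163 bp with all 4. An overlap bounds this distance, and longer peaks allow more of it.

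Pairs of lists that met the same rule had summits nearer or farther apart depending on the pair. Between SOX2 1 and its other partners, the median ran from 51.5 bp for C-MYC 1 (43 to 66) to 60 bp for SOX2 2 (52 to 69). Between POLII 1 and its other partners it ran from 60 bp for POLII 2 (53 to 72) to 88 bp for C-MYC 2 (73 to 98), with 73 bp for C-MYC 1 (66 to 84) and 79 bp for SOX2 2 (70 to 93). Replicates of the same antibody differed in this. The C-MYC replicates lay 17 bp apart (16 to 17), while the POLII and the SOX2 replicates, seen from replicate 1, each lay 60 bp apart.

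**Figure D3:**
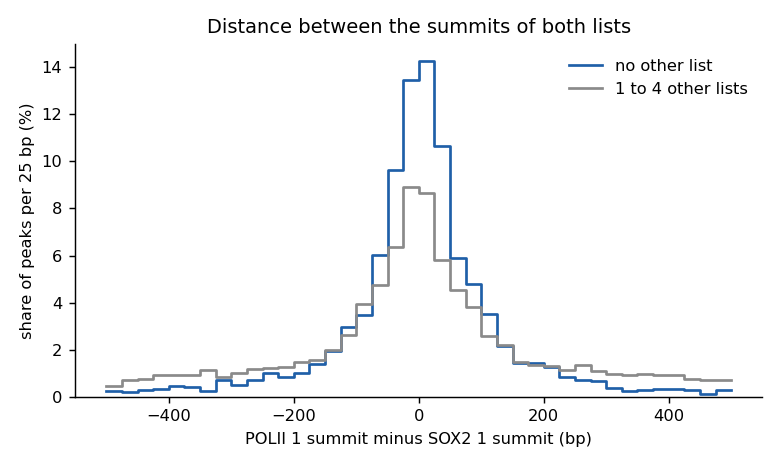
Share of peaks per 25 bp of signed distance between the POLII 1 and the SOX2 1 summit, for paired peaks (blue) and for overlaps where 1 to 4 other lists also have a peak (grey). Both centre on 0, and 48.4% of the paired peaks lie within 50 bp against 29.9% of the others.

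The paired peaks were spread over all autosomes. Their density ran from 10.9 per 10 Mb on chromosome 12 to 18.1 on chromosome 10, with a median of 15.3 over the 19 autosomes. The share of POLII 1 peaks that were paired ran from 5.84% on chromosome 12 (4.95 to 6.88) to 8.21% on chromosome 16 (7.06 to 9.53). Each autosome was cut into 10 equal parts up to its last peak. The first part held 7.40% of the paired peaks on autosomes and the last 14.1%. All POLII 1 peaks had 6.90% and 12.8% there and all SOX2 1 peaks 5.87% and 13.1%. The nearest paired peak was a median of 176177 bp away, and 34.0% (32.5 to 35.6) had another within 100 kb. Among the 5832 POLII 1 peaks shared with SOX2 1 and another list, the median was 86970 bp and the share 54.4%. Among all POLII 1 peaks the share was 97.3%. These sets differ in their number of peaks, which bears on such distances.

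Chromosome X held 11 paired peaks (0.297%, 0.166 to 0.531), where 0.435% of all POLII 1 peaks lay there. Of the 5832 POLII 1 peaks shared with SOX2 1 and another list, 35 were on X (0.600%, 0.432 to 0.833). The 11 paired peaks held 13 to 63 POLII 1 tags and 10 to 81 SOX2 1 tags. In SOX2 1, 1.82% of all peaks (1.70 to 1.96) and 1.16% of those seen nowhere else (0.947 to 1.43) were on X. Paired peaks made up 1.51% of the SOX2 1 peaks on X but 6.52% to 11.6% of those on each autosome. In POLII 1 they made up 4.72% (2.66 to 8.25) of the X peaks and 5.84% to 8.21% of those on each autosome. With each other list as the only partner, POLII 1 had 0.228% (C-MYC 1) to 0.569% (SOX2 2) of the peaks on X, which is 1 to 3 peaks, and SOX2 1 had 1.00% (C-MYC 1, 0.390 to 2.54) to 2.49% (SOX2 2, 1.40 to 4.41). In the whole POLII 1 list, X had 14.0 peaks per 10 Mb and the autosomes 180 to 241. Whether the share of paired peaks on X differs from that of the list was not tested, and it rests on 11 peaks.

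Chromosome Y held 6 paired peaks (0.162%, 0.0743 to 0.353), where 0.0280% of all POLII 1 peaks lay there. All 6 had summits between 2792961 and 2892471, a span of 99.5 kb. No other stretch of 100 kb held as many. The last peak of any list on Y ended at 2.90117 Mb, so the run lies at the end of the covered part. POLII 1 had 15 peaks on Y and SOX2 1 had 13, while the other 4 lists had 1 or 2 each. The strongest, at chrY:2857534-2859710, held 249 POLII 1 tags and 139 SOX2 1 tags, with summits 27 bp apart. At chrY:2891170-2892894 there were 169 and 193 tags, and at chrY:2883058-2884097 there were 116 and 66. The weakest of the run, chrY:2792616-2793220, held 33 and 14 tags. In 5 of the 6 the summits were at most 27 bp apart, and at chrY:2891170-2892894 they were 1646 bp apart.

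**Figure D4:**
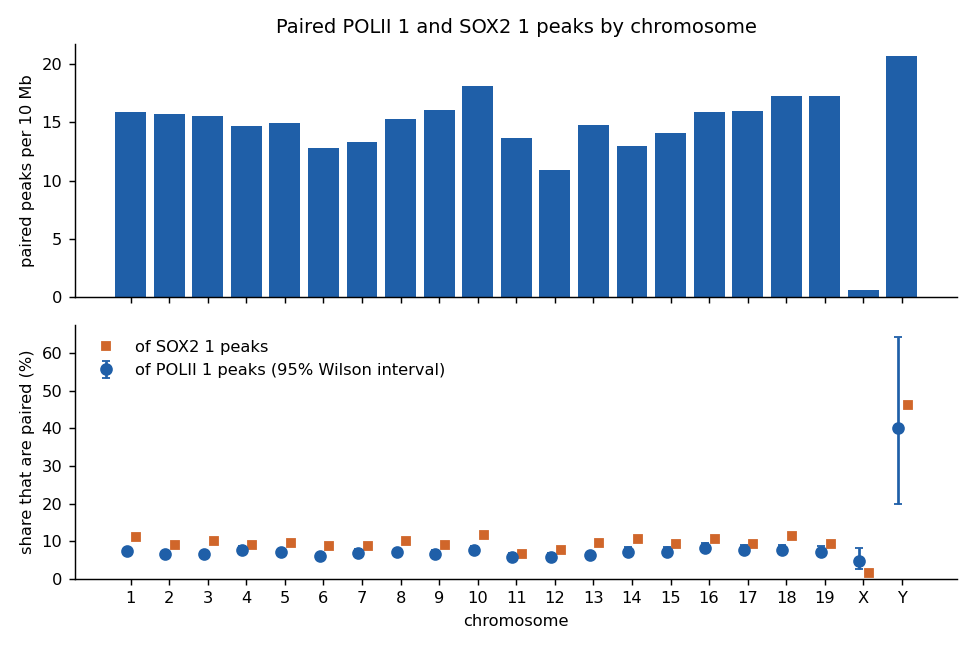
Paired peaks per 10 Mb (upper panel) and the share of all POLII 1 peaks (blue, with 95% Wilson intervals) and of all SOX2 1 peaks (orange) that are paired (lower panel), by chromosome. Autosomes range from 10.9 to 18.1 per 10 Mb, X has 0.660, and the value for Y rests on 6 peaks.

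The paired peaks with the most tags were unlike the rest. At chr3:3021069-3033658, POLII 1 had 1191 tags over 12590 bp with a fold enrichment of 3.39, and SOX2 1 had 115 tags over 2662 bp. Its neighbour at chr3:3009102-3017398 held 750 and 217 tags with fold enrichments of 3.09 and 3.49. At chr11:3049365-3051872 there were 1141 POLII 1 tags and 641 SOX2 1 tags, the most SOX2 1 tags of any paired peak, with fold enrichments of 3.12 and 3.36 and summits 8 bp apart. Many tags went with low enrichment at all 3. The fourth to sixth in POLII 1 tags were chr17:26086886-26090815, chr8:28337061-28340634 and chr8:123599595-123602303, with 368, 332 and 323 tags but only 30, 23 and 26 in SOX2 1. The other 2 of the 6 longest were chr1:136575984-136579304 and chr2:164792617-164795805, with 190 and 232 POLII 1 tags against 21 and 25.

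Of the 6 paired peaks with the most SOX2 1 tags, 3 lay far from the summit of a long SOX2 1 peak. At chr14:122875553-122876184, 26 POLII 1 tags met a SOX2 1 peak of 353 tags and 3433 bp, with summits 1639 bp apart. The same held at chr4:115749022-115749858 (29 and 312 tags, 1809 bp apart) and chr3:145310310-145310928 (36 and 293 tags, 2123 bp apart). The other 2 beside the one on chromosome 11 had closer summits. At chr9:59333676-59334214 there were 21 and 346 tags with a SOX2 1 fold enrichment of 17.5, and at chr8:127079037-127080370 there were 73 and 295 tags. These 5 had a peak of another list within 0.670 kb, just outside the POLII 1 peak. Over all paired peaks, 134 had at least 100 tags in POLII 1, 37 had so many in SOX2 1, and 5 had them in both (3.62%, 0.999% and 0.135%). Of all POLII 1 peaks that overlap SOX2 1, the shares were 5.78%, 23.9% and 1.06%.

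The 6 peaks with the highest enrichment in both lists had few tags, at most 38 in POLII 1 and 21 in SOX2 1. The first was chr12:59320112-59320428, with 25 POLII 1 and 17 SOX2 1 tags, fold enrichments of 20.5 and 21.7, summits 6 bp apart and the nearest peak of another list 317 kb away. It was followed by chr11:41445937-41446501 (29 and 21 tags, fold enrichments of 18.7 and 18.6) and chr15:91813259-91814024 (35 and 19 tags, 18.4 and 19.1). At chr12:53836843-53837331 and chr16:42313725-42314220 the lower fold enrichment was 16.6, as it was at the sixth, on chromosome 18. A fold enrichment of at least 10 in both lists was found in 498 paired peaks (13.4%), where 13.0% of all POLII 1 peaks that overlap SOX2 1 had it. Peaks with more POLII 1 tags had the lower POLII 1 fold enrichment, with a rho of -0.410.

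The distance from paired peaks to sites bound in the other lists is given beside that of peaks seen nowhere else. The nearest peak of the other 4 lists was a median of 13.9 kb away (13.1 to 14.8, quartiles 5.77 and 35.5), against 14.3 kb (14.0 to 14.6) for POLII 1 peaks seen nowhere else and 10.4 kb (10.1 to 10.8) for SOX2 1 peaks seen nowhere else. A peak of these lists was within 10 kb at 1460 paired peaks (39.4%, 37.9 to 41.0), where 40.5% of all POLII 1 peaks that overlap none of the 4 lists had one. Within 1 kb there was one at 191 (5.16%), and 41 missed another list by at most 100 bp. C-MYC 2 was the nearest in the median, at 20.5 kb, and SOX2 2 the farthest, at 32.6 kb, in the order of the number of peaks of these lists. Regions where both C-MYC replicates had a peak were a median of 25.7 kb away, and those with a peak of all 4 lists 66.7 kb. Such a 4-list region was within 10 kb of 10.3% of the paired peaks (9.39 to 11.4) and of 13.0% of POLII 1 peaks seen nowhere else (12.7 to 13.3). A SOX2 2 peak was within 10 kb of 18.8% (17.5 to 20.1) of the former and 22.0% (21.6 to 22.4) of the latter, and a POLII 2 peak of 19.9% (18.7 to 21.2) and 22.1% (21.7 to 22.5).

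Paired peaks near other sites had more SOX2 1 tags but a lower fold enrichment than remote ones. The medians were 19 (18 to 20) in the 1460 within 10 kb of another list, 15 (15 to 16) in the 1867 between 10 and 100 kb, and 13 (13 to 14) in the 377 beyond. POLII 1 tags were 30, 28 and 25, and the summits 53, 54 and 53 bp apart. The median fold enrichment was 8.18, 8.94 and 10.2 in SOX2 1 and 7.53, 7.91 and 8.78 in POLII 1.

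**Figure D5:**
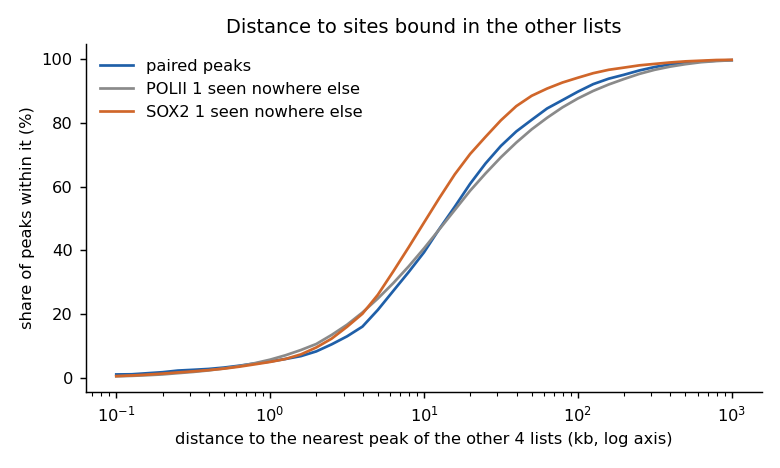
Cumulative share of peaks within a given distance (log axis) of the nearest peak of the other 4 lists, for paired peaks (blue), POLII 1 peaks seen nowhere else (grey) and SOX2 1 peaks seen nowhere else (orange). At 10 kb the shares are 39.4%, 40.7% and 48.7%.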

How the data were processed

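ChIP-seq peak lists of proliferating iMOP cells, 2 biological replicates for each of 3 antibodies, were analysed. One deposited list per replicate was used. The deposited tags are raw counts per peak. The score the authors gave is 10 times the −log10 of a p-value, at least 50, and the deposited fold enrichment is a linear ratio over a background that is not given in the sources used here. The deposited positions (other values in bases) are on mm9 per the submitters' processing notes. The aligner, peak caller and filters are not given in the sources used here.

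Overlaps (at least 1 bp), summit distances and edge distances were computed with scipy 1.17.1, pandas 2.3.3 and numpy 2.4.6 in python 3.11.15, compared with bedtools 2.31.1 (30 of 30 pairs of lists gave the same counts) and tested on simulated peaks. Figures were drawn with matplotlib 3.10.9. Where a paired peak overlapped 2 SOX2 1 peaks, the one with the closer summit was used. Shares have 95% Wilson intervals and medians 95% binomial order-statistic intervals. No test was run over peaks. The members and lists were chosen with earlier results of these data known. Named peaks are the 6 with the most POLII 1 tags, the 6 with the most SOX2 1 tags, the 6 with the highest fold enrichment in the list where it is lower, the 6 longest, the densest run within 100 kb and those at the edge of the rule. Alternatives changed the overlap, the distance to other lists, the score, the number of peaks, the lists that exclude and a region of chromosome 6. No genes were assigned and no sequences shown, since no genome of this build was used.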

Additional observations from a re-analysis of the deposited data

Results flagged for a closer look

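The 3704 POLII 1 peaks with SOX2 1 as the only partner stood apart from the counts with the other 4 partner lists, 439 to 660. The gap was 0.932 of the range of the 5 counts, above Dixon's 95% limit for 5 values. This count is what the paired peaks were chosen for, so it supports nothing further. It was the only 1 of 24 gaps (highest and lowest value of 12 measures) past the limit. Chance can flag some gaps, at a rate not worked out here, since the measures come from the same sets of peaks. The partner lists differ in antibody and are not replicates. The corresponding count from the side of SOX2 1, 3674 with POLII 1, had a gap of 0.697 and did not pass.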

How the results depend on the processing

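Of 83 recomputed values, 55 stayed within 1.5 times the main count or within the 95% interval of the main value. The highest-scoring 50% of each list left 942 paired peaks with medians of 43 POLII 1 tags, 29 SOX2 1 tags, 752 bp and a summit distance of 57 bp, and 25.2% had another list within 10 kb. Taking 26637 peaks from each list by score left 1446, with 35 and 21 tags, 714 bp, 57 bp and 29.9%. A score of at least 100 in both lists left 110, with 49 and 29.5 tags, 762.5 bp, 65 bp, 31.8% and 0 on X (0%, where the limit of 3 counts is 2.73% and the upper Wilson bound 3.37%). These settings keep fewer and stronger peaks by construction. Except at the score of at least 100, other lists were cut as well, so the share within 10 kb counts fewer peaks of them. With no other list within 10 kb, 2244 remained, with 27 and 15 tags. With none within 1 kb, 36.1% had one within 10 kb. Requiring the POLII 1 summit in the SOX2 1 peak gave 630 bp and 49 bp. Leaving out 1 of the other 4 lists gave 3871 to 4265 paired peaks, 28 to 29 POLII 1 tags, 17 SOX2 1 tags in each case, 644 to 647 bp, 53 to 55 bp, 36.5% to 39.8% within 10 kb and 0.273% to 0.336% on X. The list left out was not counted in the share within 10 kb, so that share is not like for like with the main value. Without POLII 1 or SOX2 1 there is no paired peak, so no such alternative was run. The second replicates have 659 peaks of POLII 2 with SOX2 2 as the only partner, with the fewer tags in POLII 2 in the median. No paired analysis was possible because the results come from no test between groups.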

Other observations

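Where SOX2 2 was the only further list, 319 POLII 1 peaks overlapped SOX2 1 and SOX2 2. They held a median of 42 POLII 1 tags and 20 SOX2 1 tags, and POLII 1 had the more tags in 92.5% of them (89.0 to 94.9), with summits of POLII 1 and SOX2 1 a median of 50 bp apart (41 to 57). Where POLII 2 was the only further list, 561 peaks held 32 and 28 tags, POLII 1 had the more in 59.5% (55.4 to 63.5), and the summits were 58 bp apart (52 to 65). These classes were looked at after the values of the paired peaks had been seen.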
